A study of Mus musculus with 16 samples.

Results

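The genes described here are 9 genes of adrenergic and cyclic AMP (cAMP) signalling: the receptor genes Adrb3, Adrb1 and Adra2a, the stimulatory G protein alpha subunit gene Gnas, the protein kinase A genes Prkaca and Prkar2b, the phosphodiesterase genes Pde3b and Pde4b, and the arrestin-domain gene Arrdc3. They were taken by gene symbol from the 20101 genes of the deposited expression table, in all 16 libraries. Of the 9, 8 were among the 12667 genes that passed the filter on low values, an FPKM (a fragment count corrected for gene length and library size) of at least 1 in at least 4 libraries; Adra2a did not pass.

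The RNA sequenced came from the epididymal fat pad, a white adipose depot beside the epididymis, taken when the mice were 21 weeks old. The 16 libraries make up 4 groups of 4 mice: HFD KO, HFD WT, chow KO and chow WT. HFD is a diet with 60% fat fed from 5 weeks of age, and chow has 5% fat. The titles name the genotypes KO and WT, while the genotype field of the same mice speaks of a knockdown of ApoA4, the gene of apolipoprotein A-IV. The sources used here do not give strain or the way the gene was targeted. Sex is not stated in them, but a fat pad beside the epididymis is that of a male.

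The genotype labels were checked first. Apoa4 stood at 8.69, 9.63, 7.23 and 4.93 FPKM in HFD KO and at 0.29, 0, 0.08 and 0 FPKM in HFD WT, and at 3.59, 1.96, 5.96 and 5.29 FPKM in chow KO against 0.29, 0.25, 0.23 and 0.09 FPKM in chow WT. On both diets each library labelled KO thus had more Apoa4 RNA than any labelled WT. KO and WT below stand for these labels only, and every direction between genotypes rests on them.

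Noradrenaline from sympathetic nerves acts on fat cells through beta-adrenergic receptors, which couple to the stimulatory G protein Gs and raise cAMP through adenylyl cyclase, whereas alpha-2 receptors couple to Gi and lower it. cAMP releases the catalytic subunits of protein kinase A from its regulatory subunits, and the kinase phosphorylates the lipolytic enzymes and lipid droplet coat proteins, so that stored fat is broken down. Phosphodiesterases degrade cAMP, and arrestin-type adaptors take receptors off the cell surface.

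Adipocyte markers were present in every library, with none of the 18 listed genes at 0 throughout. Their summed level was 6263 to 19595 FPKM in HFD KO and 10221 to 26342 FPKM in HFD WT, against 21227 to 47320 FPKM in chow KO and 38929 to 41484 FPKM in chow WT. The 16 general macrophage markers ran the other way, with sums of 3343 to 11171 FPKM in HFD KO and 2419 to 9351 FPKM in HFD WT, against 1199 to 1501 FPKM in chow KO and 1582 to 1714 FPKM in chow WT. In bulk tissue, fewer cells of a type and less RNA per cell cannot be told apart. The 18 listed epididymal genes took 3.26% of all FPKM in replicate 2 of chow KO and 1.27% in replicate 4 of HFD KO. HFD KO replicate 2 held fewer of them (0.508%) and was the library with the highest brown and beige adipocyte markers, with the thermogenic gene Ucp1 at 67.16 FPKM there, against 0.17 to 2.1 FPKM in the other HFD KO libraries. Within groups the lowest correlation between 2 libraries was 0.855 in HFD KO, 0.909 in HFD WT, 0.897 in chow KO and 0.986 in chow WT, so chow WT had the closest replicates.

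FPKM is a level per transcript length, so levels of the 9 genes can be set side by side. By mean FPKM, Gnas was highest in each group, and Pde4b, Adrb1 and Adra2a were the lowest in that order. In HFD KO and HFD WT the order below Gnas was Prkar2b, Prkaca, Pde3b, Arrdc3 and Adrb3. In chow WT it was Prkar2b, Pde3b, Arrdc3, Adrb3 and Prkaca, and in chow KO it was Prkar2b, Pde3b, Adrb3, Prkaca and Arrdc3. Neighbours in this order often overlapped: in chow WT the libraries of Arrdc3 and Adrb3 overlapped, and so did those of Adrb3 and Prkaca, while in HFD KO every neighbouring pair below Gnas overlapped. Gnas did not overlap its neighbour in any group. On GRCm38 Arrdc3 lies on chromosome 13 (80883384 to 80896042, plus strand), Pde3b on chromosome 7 (114415281 to 114539251, plus), Pde4b on chromosome 4 (102087543 to 102607259, plus), Prkar2b on chromosome 12 (31958476 to 32061296, minus) and Prkaca on chromosome 8 (83972993 to 83996443, plus). Adrb1 (56722199 to 56733113, plus) and Adra2a (54044151 to 54048982, plus) are both on chromosome 19.

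**Figure D1:**
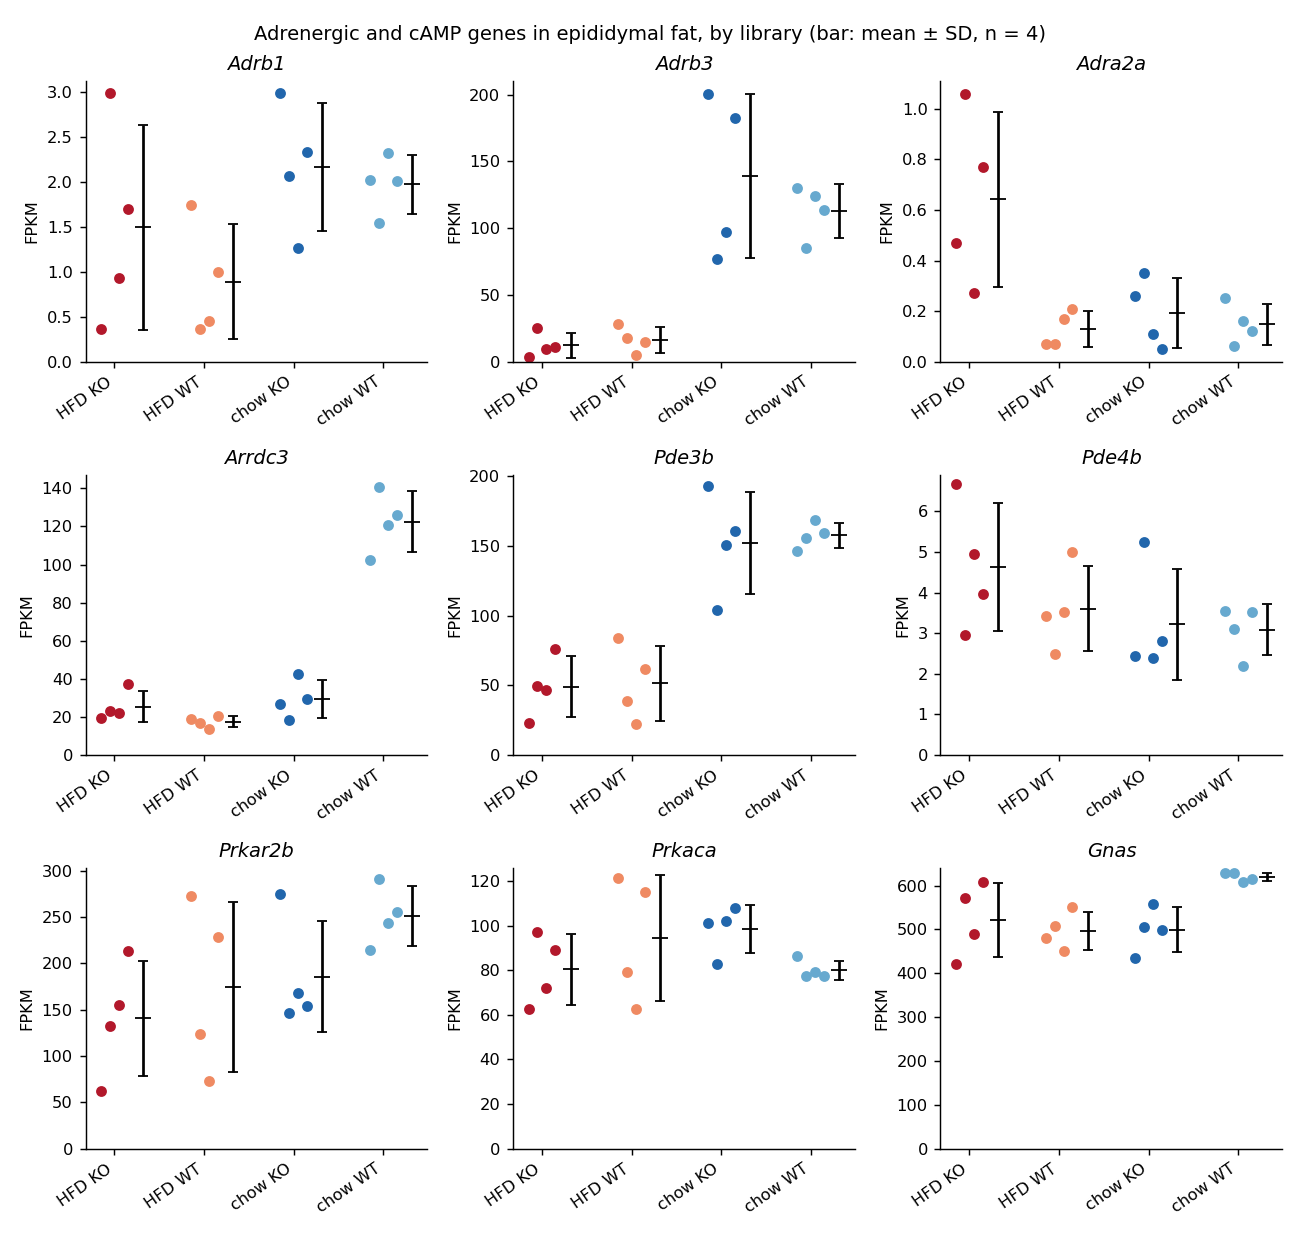
FPKM (vertical axes, linear from 0) of the 9 genes in the 16 libraries, with 1 point per mouse in HFD KO, HFD WT, chow KO and chow WT, and a bar for the mean ± SD (n = 4). Adrb3 and Pde3b separate by diet in both genotypes, while Arrdc3 separates chow WT from the 3 other groups. For Gnas the lowest chow WT library is only just above the highest of the others, at 609.12 against 608.4 FPKM.

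Tests were made with limma on log2(FPKM + 1) over all 12667 genes, with Benjamini-Hochberg adjustment and a threshold of 0.05. On HFD against chow, 2 of the 8 members that passed the filter were lower in KO mice and none was higher, where 15.3% of all tested genes were called lower, 23.5% higher and 38.9% in either direction. In WT mice, 3 of 8 were lower and none was higher, against 17.2% of all genes lower, 24.6% higher and 41.9% called in all. The median log2 difference over the 8 was -0.37 in KO and -0.70 in WT, beside 0.08 and 0.06 over all tested genes. The KO count was 4 without the 2 libraries rich in epididymal RNA, with Arrdc3 lower and Pde4b higher besides, and 6 when HFD KO replicate 2 was left out as well, with Adrb1 and Prkaca lower besides. The WT counts were then 3 and 4. In these fits calls rose over all tested genes too, to 49.4% and 50.1% in KO and to 48.7% and 50.8% in WT. With quantile normalization the split of calls over all genes was 2279 higher and 3105 lower in KO, and 2493 higher and 2953 lower in WT, against 2979 and 1943 in KO, and 3121 and 2183 in WT, as deposited; with median-of-ratios scaling it was 2604 and 2617 in KO. Between KO and WT on HFD none of the 8 was called, where 4 genes of all (0.0316%) were called, 0.0237% higher and 0.00789% lower, and 1500 had an unadjusted p under 0.05. Between KO and WT on chow 1 of 8, Arrdc3, was called, lower in KO, where 0.979% of genes were called lower, 0.426% higher and 1.41% in either direction; the split was 54 higher and 124 lower, and 42 and 170 with median-of-ratios scaling. In the genotype by diet interaction, the difference between the genotypes in their response to diet, 1 of 8 was called, again Arrdc3, where 0.253% of genes had a positive call, 0.0395% a negative one and 0.292% any call, 32 positive and 5 negative, or 32 and 12 with median-of-ratios scaling. These all-gene counts between genotypes moved with single libraries. The 178 calls on chow became 87 without chow KO replicate 1, and 90, 55, 79 and 61 without chow WT replicates 1 to 4. The 37 interaction calls became 24 without HFD KO replicate 2, and 21, 13, 15 and 12 without chow WT replicates 1 to 4. The 4 calls on HFD became 10 without HFD KO replicate 3. Arrdc3 was called on chow and in the interaction in each of these fits.

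**Figure D2:**
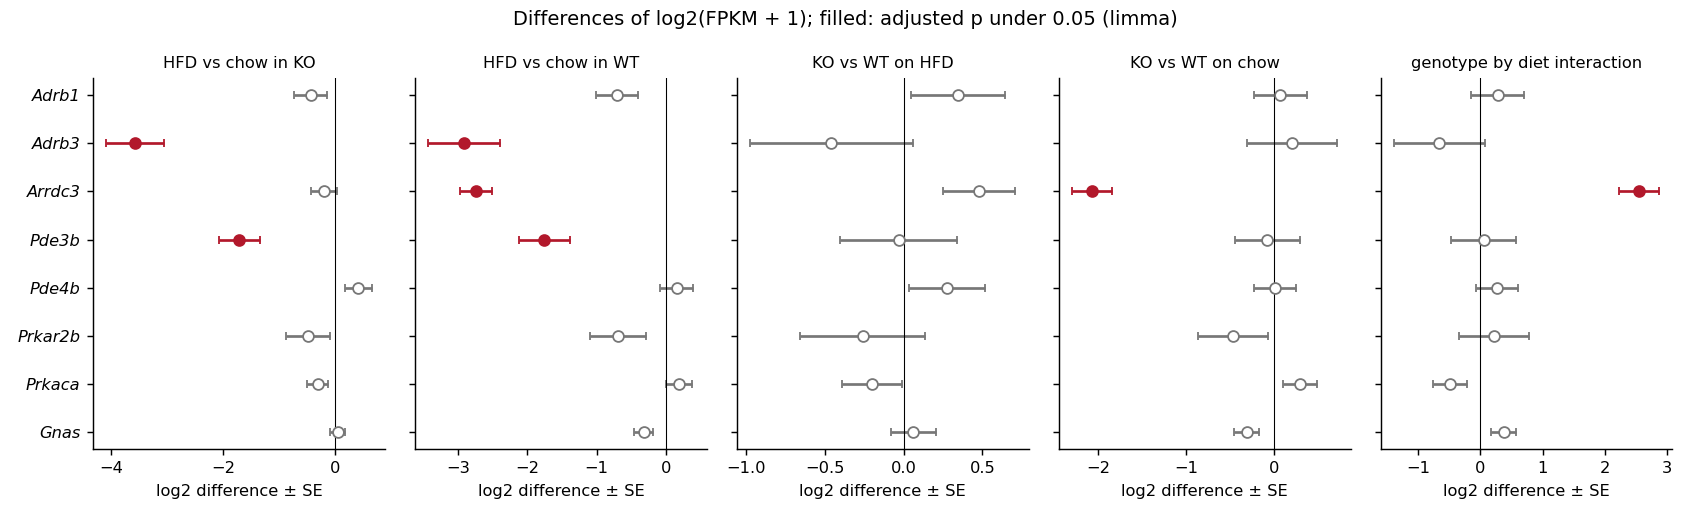
Differences of log2(FPKM + 1) with their standard errors (horizontal axes) for the 8 genes that passed the filter, in the 5 comparisons; filled points have an adjusted p under 0.05. Adrb3 and Pde3b lie below 0 on HFD in both genotypes, and Arrdc3 is filled in WT on diet, between genotypes on chow and in the interaction.

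Adrb3 is the beta-3 adrenergic receptor, the main beta receptor of rodent adipocytes and the entry point of noradrenaline-driven lipolysis. Its RNA fell furthest of the 9 genes on HFD. It stood at 3.24, 25.01, 9.62 and 11.03 FPKM in HFD KO, against 200.34, 76.6, 96.76 and 182.19 FPKM in chow KO. In WT mice it stood at 27.99, 17.63, 5.05 and 14.38 FPKM on HFD, against 129.85, 84.76, 124.11 and 113.4 FPKM on chow. In each genotype every HFD library was below every chow library, a pattern that 11.3% of tested genes showed in KO and 20.7% in WT. Over both genotypes the highest HFD value, 27.99 FPKM, was well under the lowest chow value, 76.6 FPKM. On the FPKM scale the mean was 11.4-fold lower on HFD in KO and 6.95-fold lower in WT.

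The log2 difference of Adrb3 on HFD was -3.57 in KO (SE 0.51, adjusted p = 0.000219), placed 8 from the largest fall among the 12667 genes, and -2.91 in WT (SE 0.51, adjusted p = 0.000594), placed 28. The genotypes differed by less than the spread between mice, by -0.46 on HFD (SE 0.51, adjusted p = 0.749) and 0.20 on chow (SE 0.51, adjusted p = 0.902), and the interaction was -0.66 (SE 0.73, adjusted p = 0.846). HFD KO replicate 2, the library with Ucp1, had the highest Adrb3 of its group; without it the log2 difference in KO was -3.99 (adjusted p = 0.000192). Of the 18 adipocyte markers 10 fell in KO and none rose, and in WT 10 fell and 1, Dgat2, rose (1.62, adjusted p = 0.0207). Mesothelial markers fell in the same comparisons, 4 of 8 in KO and 5 of 8 in WT with none higher, and summed to 42.98 to 351.18 FPKM in HFD KO and 32.81 to 52.9 FPKM in HFD WT, against 58.11 to 340.07 FPKM in chow KO and 56.22 to 139.46 FPKM in chow WT; their part in the Adrb3 difference was not tested. With the adipocyte marker score of each library as a covariate, a setting chosen after the data were seen, the log2 difference of Adrb3 was -2.12 in KO (adjusted p = 0.00995) and -1.78 in WT (adjusted p = 0.00692). That score did not overlap between diets, at 6.59 to 8.53 in HFD KO against 8.77 to 9.54 in chow KO. In WT it was 7.43 to 9.11 on HFD against 9.23 to 9.40 on chow. Diet differences with the covariate thus extend its slope beyond the scores that the diets share. On GRCm38 the gene lies on chromosome 8 from 27225776 to 27250616, minus strand, and its exons overlap those of the predicted gene Gm45470 on the opposite strand; whether the authors' counting used strand is not given, so reads of the pair cannot be told apart.

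Adrb1, the beta-1 receptor, was expressed far below Adrb3. It stood at 0.36, 2.99, 0.93 and 1.7 FPKM in HFD KO against 2.99, 2.07, 1.27 and 2.34 FPKM in chow KO, and at 1.75, 0.36, 0.45 and 1 FPKM in HFD WT against 2.02, 1.54, 2.33 and 2.01 FPKM in chow WT. The groups overlapped in every comparison. The log2 difference on HFD was -0.43 in KO (SE 0.30, adjusted p = 0.271) and -0.71 in WT (SE 0.30, adjusted p = 0.0705). The WT difference passed the threshold when HFD KO replicate 1 (adjusted p = 0.0410), HFD KO replicate 2 (adjusted p = 0.0406) or HFD WT replicate 1 (-0.91, adjusted p = 0.0247) was left out. Between KO and WT the log2 difference of Adrb1 was 0.35 on HFD (SE 0.30, adjusted p = 0.667) and 0.07 on chow (SE 0.30, adjusted p = 0.947).

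Adra2a, the alpha-2A receptor, couples to Gi and opposes the beta receptors. It stood at 0.47, 1.06, 0.27 and 0.77 FPKM in HFD KO, against 0.07, 0.07, 0.17 and 0.21 FPKM in HFD WT. On chow it stood at 0.26, 0.35, 0.11 and 0.05 FPKM in KO and at 0.25, 0.06, 0.16 and 0.12 FPKM in WT. The 4 HFD KO libraries were above the 4 HFD WT libraries, a pattern that 5.81% of the tested genes showed, but only 1 library of the 16 reached 1 FPKM, so the gene was not in the main test. In a fit without the filter its log2 difference was 0.52 between KO and WT on HFD (SE 0.13, adjusted p = 0.261) and 0.44 between HFD and chow in KO (SE 0.13, adjusted p = 0.0197), where the groups overlapped. HFD KO replicate 2 was the highest library.

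The balance between receptors was followed within each library as the ratio of their FPKM. Adrb3 was 9, 8.36, 10.3 and 6.49 times Adrb1 in HFD KO, against 37.0 to 77.9 times in chow KO. It was 15.99, 49.0, 11.2 and 14.4 times Adrb1 in HFD WT, against 64.3, 55.0, 53.3 and 56.4 times in chow WT. The ratio was lower in every HFD library than in any chow library of the same genotype, yet Adrb3 was still the more abundant in all 16. On the scale of log2((FPKM + 1)/(FPKM + 1)), the balance of Adrb1 over Adrb3 was higher on HFD by 3.14 in KO and by 2.20 in WT, and that of Adra2a over Adrb3 by 4.01 in KO and by 2.89 in WT. Each of these 4 had p = 0.0286 in an exact two-sided permutation test (n = 4 each), the smallest p that 4 against 4 allows, and adjusted p = 0.0762 over the 16 balances tested, so none passed the threshold. Taken singly, Adrb1 differed between the diets by -0.43 and Adrb3 by -3.57 on the log2 scale in KO, and by -0.71 and -2.91 in WT. Adra2a, near the floor, differed by 0.44 in KO and by -0.02 in WT in the fit without the filter. Its balance with Adrb3 thus followed mostly Adrb3.

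Gnas encodes the alpha subunit of Gs, which links the beta receptors to adenylyl cyclase. It stood at 420.05, 571.64, 489.01 and 608.4 FPKM in HFD KO and at 479.91, 506.87, 449.63 and 551.15 FPKM in HFD WT. On chow it stood at 435.87, 505.54, 559.07 and 498.57 FPKM in KO, against 627.72, 628.68, 609.12 and 614.13 FPKM in WT. The 4 chow WT libraries, from 609.12 to 628.68 FPKM, lay above the 12 others, but only just, the highest of those being 608.4 FPKM. They also did so for Arrdc3, there at 102.18 FPKM or more against 42.61 FPKM or less. That pattern was shown by 2.21% of tested genes. The size was small for Gnas, with a log2 difference of -0.32 on HFD in WT (SE 0.14, adjusted p = 0.0795) and of -0.32 between KO and WT on chow (SE 0.14, adjusted p = 0.320), and neither passed the threshold. The WT difference passed with median-of-ratios scaling (-0.40, adjusted p = 0.0479), with array weights (-0.31, adjusted p = 0.0176) and without a variance trend (adjusted p = 0.0481). All 4 chow KO libraries were below all 4 chow WT libraries in 6.25% of tested genes. In KO the diet difference was 0.05 (SE 0.14, adjusted p = 0.787), and -0.054 with median-of-ratios scaling. The locus on chromosome 2, 174284320 to 174346744 on GRCm38, is imprinted and gives several transcripts, and its exons overlap Nespas and Gm20721 on the opposite strand, so reads of these transcripts cannot be told apart.

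Prkar2b and Prkaca encode the main regulatory (RII beta) and catalytic (C alpha) subunits of protein kinase A in white fat. Prkar2b stood at 62.46, 131.83, 154.96 and 213.23 FPKM in HFD KO against 275.45, 146.14, 167.59 and 154.1 FPKM in chow KO, and at 272.92, 123.62, 73.21 and 228.23 FPKM in HFD WT against 214.15, 291.58, 243.52 and 255.12 FPKM in chow WT. The HFD libraries were widely spread in each genotype and overlapped the chow libraries. The log2 difference on HFD was -0.48 in KO (SE 0.40, adjusted p = 0.356) and -0.69 in WT (SE 0.40, adjusted p = 0.177). Prkaca stood at 62.75, 97.41, 72.25 and 89.33 FPKM in HFD KO against 101.46, 83.01, 102.01 and 107.94 FPKM in chow KO, and at 121.47, 79.11, 62.56 and 115.18 FPKM in HFD WT against 86.28, 77.31, 79.25 and 77.28 FPKM in chow WT. Its log2 difference on HFD was -0.30 in KO (SE 0.19, adjusted p = 0.225) and 0.19 in WT (SE 0.19, adjusted p = 0.457). Without the 3 libraries named above for epididymal RNA the KO value was -0.62 (adjusted p = 0.0421). With the adipocyte marker score as a covariate Prkaca was higher on HFD in WT by 0.64 (adjusted p = 0.00274), and in KO the value was 0.27 (adjusted p = 0.249). The score did not overlap between diets in either genotype, so both values are extrapolated along it. The ratio of Prkar1a, which encodes the type I regulatory subunit, to Prkar2b did not pass the test between diets, with balances of 0.61 in KO (adjusted p = 0.416) and 0.94 in WT (adjusted p = 0.229, exact permutation tests, n = 4 each).

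Pde3b is the insulin-activated phosphodiesterase through which insulin restrains lipolysis. It stood at 22.82, 49.67, 46.77 and 76.31 FPKM in HFD KO against 192.86, 104.17, 151.02 and 160.76 FPKM in chow KO. In WT mice it stood at 83.79, 38.57, 22.19 and 61.67 FPKM on HFD, against 146.82, 155.86, 168.57 and 159.22 FPKM on chow. All 8 HFD libraries were below all 8 chow libraries, as for Adrb3. Within the genotype, 11.3% of tested genes showed such a pattern in KO and 20.7% in WT. Pde3b fell by 1.70 on the log2 scale in KO (SE 0.37, adjusted p = 0.00278) and by 1.75 in WT (SE 0.37, adjusted p = 0.00190), that is 3.11-fold and 3.06-fold lower in mean FPKM. KO and WT differed by -0.03 on HFD (adjusted p = 0.984) and by -0.08 on chow (adjusted p = 0.949). With the adipocyte marker score as a covariate the log2 difference was -0.45 in KO (adjusted p = 0.129), no longer past the threshold, and -0.77 in WT (adjusted p = 0.00344). Here too the score did not overlap between diets.

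Pde4b, a cAMP-specific phosphodiesterase common in immune cells, was at lower levels. It stood at 6.67, 2.96, 4.95 and 3.97 FPKM in HFD KO against 2.44, 5.25, 2.39 and 2.8 FPKM in chow KO, and at 3.42, 2.49, 3.52 and 5.01 FPKM in HFD WT against 3.55, 3.1, 2.19 and 3.53 FPKM in chow WT. All groups overlapped, and the log2 difference on HFD was 0.42 in KO (SE 0.24, adjusted p = 0.172) and 0.16 in WT (SE 0.24, adjusted p = 0.618). Chow KO replicate 2, the library with the most epididymal RNA, was the highest chow library; without it the KO difference was 0.63 (adjusted p = 0.0323), and without HFD KO replicate 4 as well it was 0.68 (adjusted p = 0.0315). Pde3b was 3.42, 16.8, 9.45 and 19.2 times Pde4b in HFD KO against 79.0, 19.8, 63.2 and 57.4 times in chow KO, and 24.5, 15.5, 6.30 and 12.3 times in HFD WT against 41.4, 50.3, 77.0 and 45.1 times in chow WT. The balance of Pde4b over Pde3b was higher on HFD by 2.13 in KO and by 1.91 in WT, each with p = 0.0286 (exact permutation test, n = 4 each) and adjusted p = 0.0762.

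Arrdc3 encodes an alpha-arrestin that has been described as an adaptor for beta-adrenergic receptors. It was the member whose response to diet differed between genotypes. It stood at 19.61, 22.92, 22.11 and 37.36 FPKM in HFD KO and at 18.96, 17.01, 13.79 and 20.71 FPKM in HFD WT. On chow it stood at 26.9, 18.67, 42.61 and 29.58 FPKM in KO, against 102.18, 140.91, 120.79 and 125.91 FPKM in WT. The lowest chow WT library, at 102.18 FPKM, was far above the highest of the 12 others, at 42.61 FPKM.

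In WT mice Arrdc3 fell on HFD by 2.73 on the log2 scale (SE 0.23, adjusted p = 2.48e-06), 6.95-fold in mean FPKM. On chow it was lower in KO than in WT, with a log2 difference of -2.07 (SE 0.23, adjusted p = 0.000274), 4.16-fold in mean FPKM and placed 20 from the largest fall among all tested genes. The interaction was 2.55 (SE 0.32, adjusted p = 0.00276), and its smallest and largest adjusted p over the 30 alternatives were 0.000153 and 0.0120. These 3 comparisons share the chow WT libraries. In KO the diet difference was -0.19 (SE 0.23, adjusted p = 0.546); without replicate 2 of chow KO and replicate 4 of HFD KO, the libraries rich in epididymal RNA, it was -0.57 (adjusted p = 0.0205), and the interaction was 2.17 (adjusted p = 0.00187). On HFD, KO and WT differed by 0.48 (SE 0.23, adjusted p = 0.429). Of the 18 adipocyte markers 0 were called between the genotypes on chow, where 1.41% of all tested genes were called. With the adipocyte marker score as a covariate the chow difference of Arrdc3 was -2.05 (limma adjusted p = 5.07e-05). Smooth muscle and pericyte markers summed to 98.82 to 125.38 FPKM in chow KO, against 163.57 to 405.28 FPKM in chow WT without overlap. Macrophage marker sums, 1199 to 1501 against 1582 to 1714 FPKM, did not overlap either, while those of the other marker lists overlapped. As means of log2(FPKM + 1) over each list, both overlapped. Smooth muscle and pericyte markers were at 2.69 to 3.44 in chow KO against 3.20 to 4.21 in chow WT. Macrophage markers were at 5.041 to 5.421 against 5.407 to 5.602. Between genotypes on chow, 1 of the 8 smooth muscle and pericyte markers, Acta2, was called, lower in KO, and 0 of the 16 macrophage markers. The part of tissue makeup in the Arrdc3 difference was not tested.

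**Figure D3:**
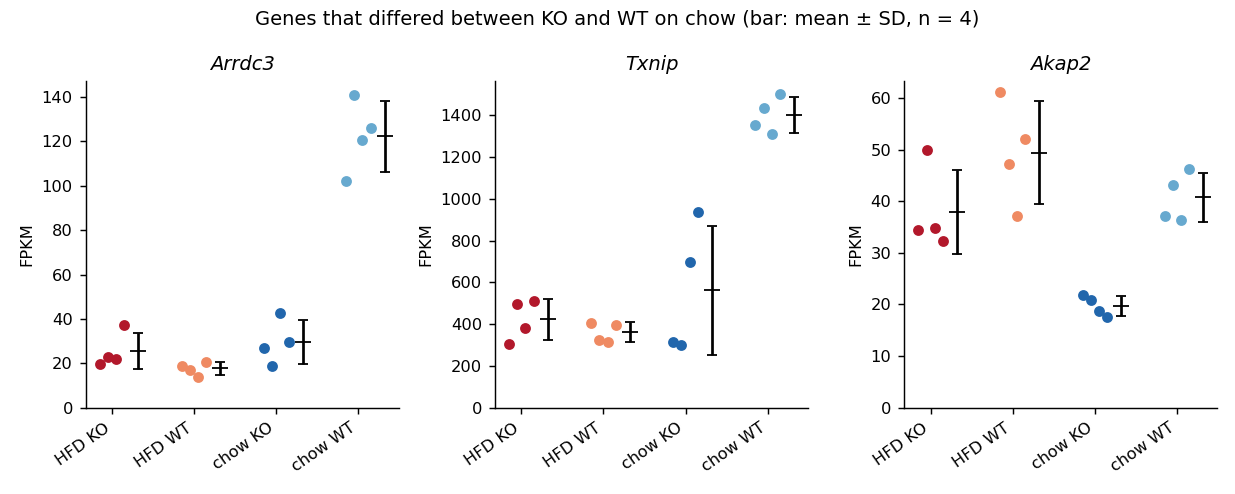
FPKM (vertical axes, linear from 0) of Arrdc3 and of Txnip and Akap2, pathway genes called between KO and WT on chow, with 1 point per mouse and a bar for the mean ± SD (n = 4 in each of HFD KO, HFD WT, chow KO and chow WT). Arrdc3 and Txnip are highest in chow WT, while Akap2 is lowest in chow KO.

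Promoter windows 1 and 3 of the 3 of Arrdc3 are shown because its RNA set chow WT apart. Its promoter 2, not shown, overlaps promoter 1 and had 0 matches to the cAMP response element core. Prkaca promoter 1 is shown because it held the most matches to that core of the windows searched. RefSeq promoter windows on GRCm38.p6, from 250 bases before to 50 bases after a transcription start, were given for 7 of the 9 members, 17 windows in all; Adrb3 and Pde3b had no entry. Capitals mark TGACG, the core bound by CREB, on either strand, where a match on the other strand reads CGTCA.
Arrdc3 promoter 1 (chr13:80883134-80883433, plus strand): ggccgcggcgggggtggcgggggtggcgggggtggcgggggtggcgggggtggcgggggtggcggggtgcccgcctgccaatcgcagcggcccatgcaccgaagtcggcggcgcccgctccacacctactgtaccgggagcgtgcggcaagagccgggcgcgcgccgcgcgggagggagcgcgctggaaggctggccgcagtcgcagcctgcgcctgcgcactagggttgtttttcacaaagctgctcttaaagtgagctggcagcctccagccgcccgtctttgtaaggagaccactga
Arrdc3 promoter 3 (chr13:80885845-80886144, plus strand): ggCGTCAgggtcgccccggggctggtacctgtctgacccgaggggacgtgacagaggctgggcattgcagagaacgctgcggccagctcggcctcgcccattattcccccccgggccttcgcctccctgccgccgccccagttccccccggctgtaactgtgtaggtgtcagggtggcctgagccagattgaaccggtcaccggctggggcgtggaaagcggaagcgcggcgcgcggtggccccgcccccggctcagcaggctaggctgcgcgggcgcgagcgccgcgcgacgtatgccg
Prkaca promoter 1 (chr8:83972728-83973027, plus strand): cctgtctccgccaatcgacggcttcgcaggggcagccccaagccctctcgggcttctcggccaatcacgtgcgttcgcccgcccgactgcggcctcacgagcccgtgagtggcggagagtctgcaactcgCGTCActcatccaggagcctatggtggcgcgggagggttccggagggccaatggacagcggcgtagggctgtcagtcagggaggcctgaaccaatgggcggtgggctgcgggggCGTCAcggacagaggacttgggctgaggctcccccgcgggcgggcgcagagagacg
The palindrome TGACGTCA was in none of the 17 windows, against 1.79% of 32851 promoter windows of the same length. TGACG, which the palindrome contains, was in 8 of the 17 windows, of 6 members, and in 20.8% of all windows. Some windows of a member overlap, 2 of the 8 among them, both of Gnas. Of these 8, all but Pde4b promoter 1 (47%) had 64.33% to 81.67% of bases as G or C. The median over all windows was 52.67%, and the part of base content in the TGACG share was not tested. Arrdc3 promoter 1, the more upstream start, had no match, and Arrdc3 promoter 3 had 1 match, at position -248 from the start. Prkaca promoter 1 had 2 matches. CACGTG, the E-box, searched on both strands, was in 7.15% of all windows, in Prkaca promoter 1 at position -185 and in neither Arrdc3 window shown. The letters describe these windows only and show no binding.

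Among the 8 HFD libraries the members were set against the score of each library, the mean log2(FPKM + 1) over the 18 adipocyte markers or the 16 macrophage markers, in 18 relations with exact permutation p-values. The adipocyte score was 6.59, 8.26, 7.95 and 8.53 in HFD KO, and 9.11, 7.59, 7.43 and 8.65 in HFD WT. Prkar2b followed it most closely (Pearson r = 0.950, Spearman rho = 0.976, n = 8, permutation adjusted p = 0.00179 and 0.00714), with r = 0.952 within the 4 HFD KO and 0.955 within the 4 HFD WT libraries. Pde3b followed it too (r = 0.933, rho = 0.952, n = 8, permutation adjusted p = 0.00179 and 0.0100), as did Prkaca (r = 0.904, rho = 0.929, n = 8, permutation adjusted p = 0.0107 and 0.0100). Without the 2 libraries farthest from the median score, HFD KO replicate 1 and HFD WT replicate 1, r was 0.898 for Prkar2b, 0.910 for Pde3b and 0.875 for Prkaca. For Adrb3 r was 0.802 (rho = 0.738, n = 8, permutation adjusted p = 0.0429 and 0.0825), but 0.430 without those 2 libraries, so that relation rested on them. Within the 4 HFD KO libraries r was 0.840 and within the 4 HFD WT libraries 0.729, with 1 of those 2 libraries in each group. Adrb1, Gnas, Arrdc3, Pde4b and Adra2a did not pass, with r between -0.342 for Pde4b and 0.722 for Adrb1 (permutation adjusted p = 0.457 and 0.0754). Against the macrophage score the sign was the opposite for Pde3b (r = -0.889, rho = -0.929, permutation adjusted p = 0.0195 and 0.0100), Prkar2b (r = -0.834, rho = -0.833, adjusted p = 0.0350 and 0.0386) and Prkaca (r = -0.832, rho = -0.881, adjusted p = 0.0350 and 0.0261, permutation tests). Without HFD KO replicate 4 and HFD WT replicate 1, the 2 libraries farthest from the median of that score, r was -0.802 for Pde3b, -0.729 for Prkar2b and -0.909 for Prkaca. Adrb3 (r = -0.738, rho = -0.833) and Adrb1 (r = -0.737, rho = -0.826) each passed by rho but not by r with that score (permutation adjusted p = 0.0754 for each r and 0.0386 for each rho). Without HFD KO replicate 4 and HFD WT replicate 1 their r was -0.900 for Adrb3 and -0.789 for Adrb1. Both scores come from the same libraries, and the part of tissue makeup in the members' levels was not tested.

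**Figure D4:**
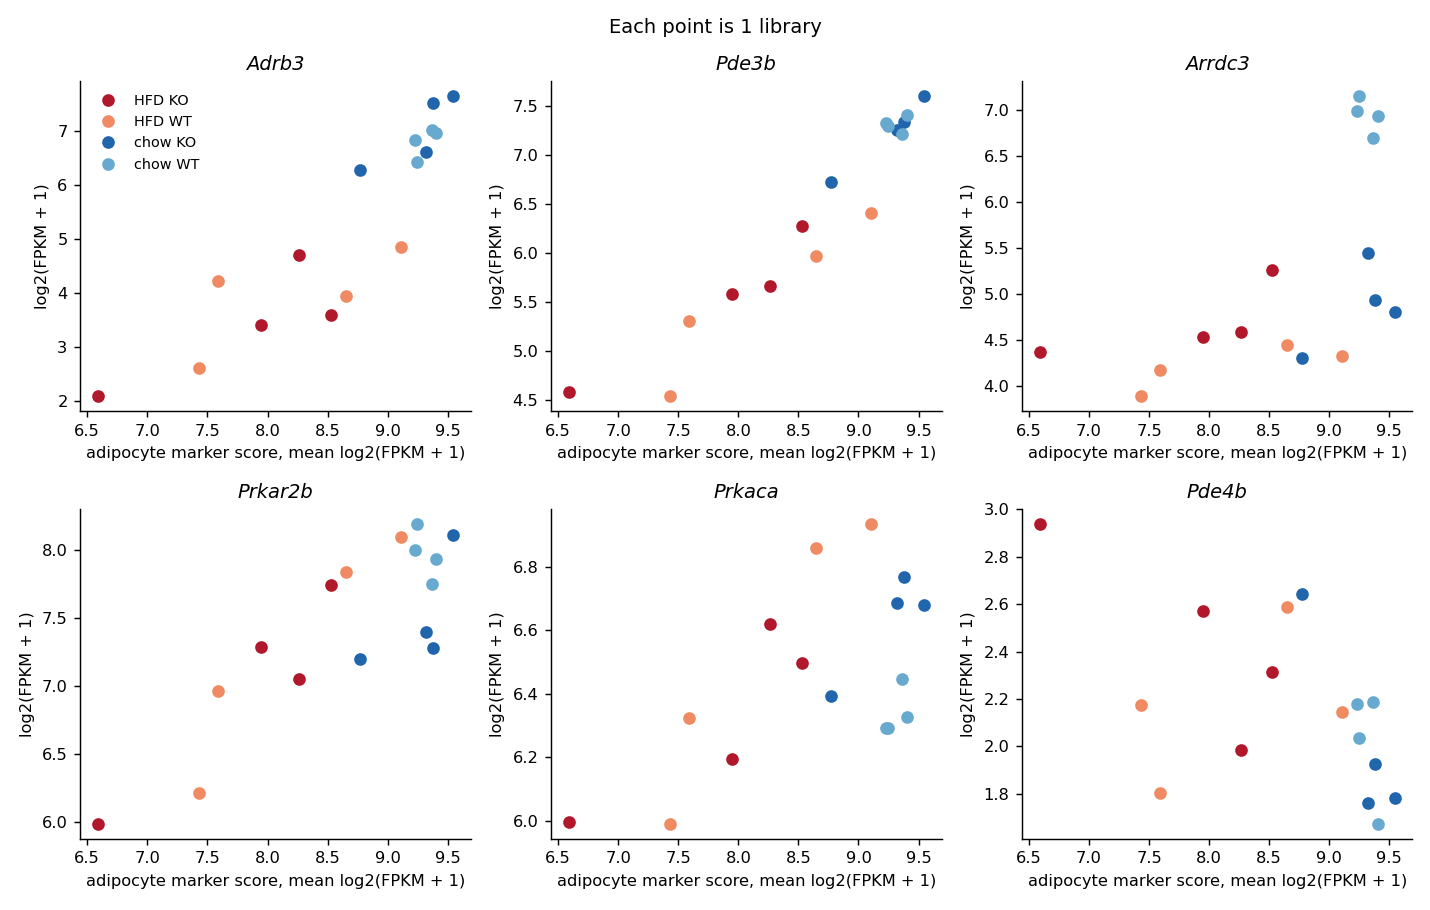
log2(FPKM + 1) of 6 members (vertical axes) against the adipocyte marker score of the library (horizontal axes), with 1 point per library in the colours of HFD KO, HFD WT, chow KO and chow WT. Among the HFD libraries Prkar2b and Pde3b lie higher at higher scores (r = 0.950 and 0.933), and the 4 chow WT points of Arrdc3 lie apart at scores shared with chow KO.

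Over all 16 libraries, the genes with the pattern most like Adrb3 were Retnla (Pearson r = 0.972), Cyp2e1 (0.967) and Kyat3 (0.965). Those most like Pde3b were Mccc2 (0.993), Bckdhb (0.991) and Hibch (0.989), enzymes of branched-chain amino acid breakdown. Pde3b and Adrb3 themselves had r = 0.946. Those most like Arrdc3 were Chac1 (0.959), Stim1 (0.955) and Cntf (0.947), and those most like Prkar2b were Arxes2 (0.960) and Rasgrf2 (0.948). For Prkaca they were Mgll (0.930), the monoglyceride lipase gene, Atpaf2 (0.919) and Gpt (0.917). For Adrb1 they were Spock2 (0.938), Dab2ip (0.925) and Pard3 (0.919). The likeness was lower for Gnas, with Acta1 (0.886), Castor1 (0.878) and Rcan2 (0.859), and for Pde4b, with Gxylt2 (0.827), Pdgfrl (0.825) and Ccl8 (0.815). These values describe 16 libraries that share the split by diet, and carry no test.

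Of 121 other genes of the pathway, listed in 12 groups by role, 96 passed the filter. On HFD 30 were higher and 14 lower in KO, and 23 higher and 15 lower in WT. Of all tested genes 23.5% were called higher and 15.3% lower in KO, and 24.6% and 17.2% in WT. Both counts of lower genes and the WT count of higher genes were near these shares. The KO count of higher genes was above its share. That count includes Gnal and Pkib, which would not have passed the filter on their chow libraries alone. Their rise was thus in part selected for. No list was tested, and the same shares stand beside the counts by role below. Between KO and WT 0 of 96 were called on HFD and 0 in the interaction. On chow 3 were lower in KO, as were 0.979% of all tested genes.

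**Figure D5:**
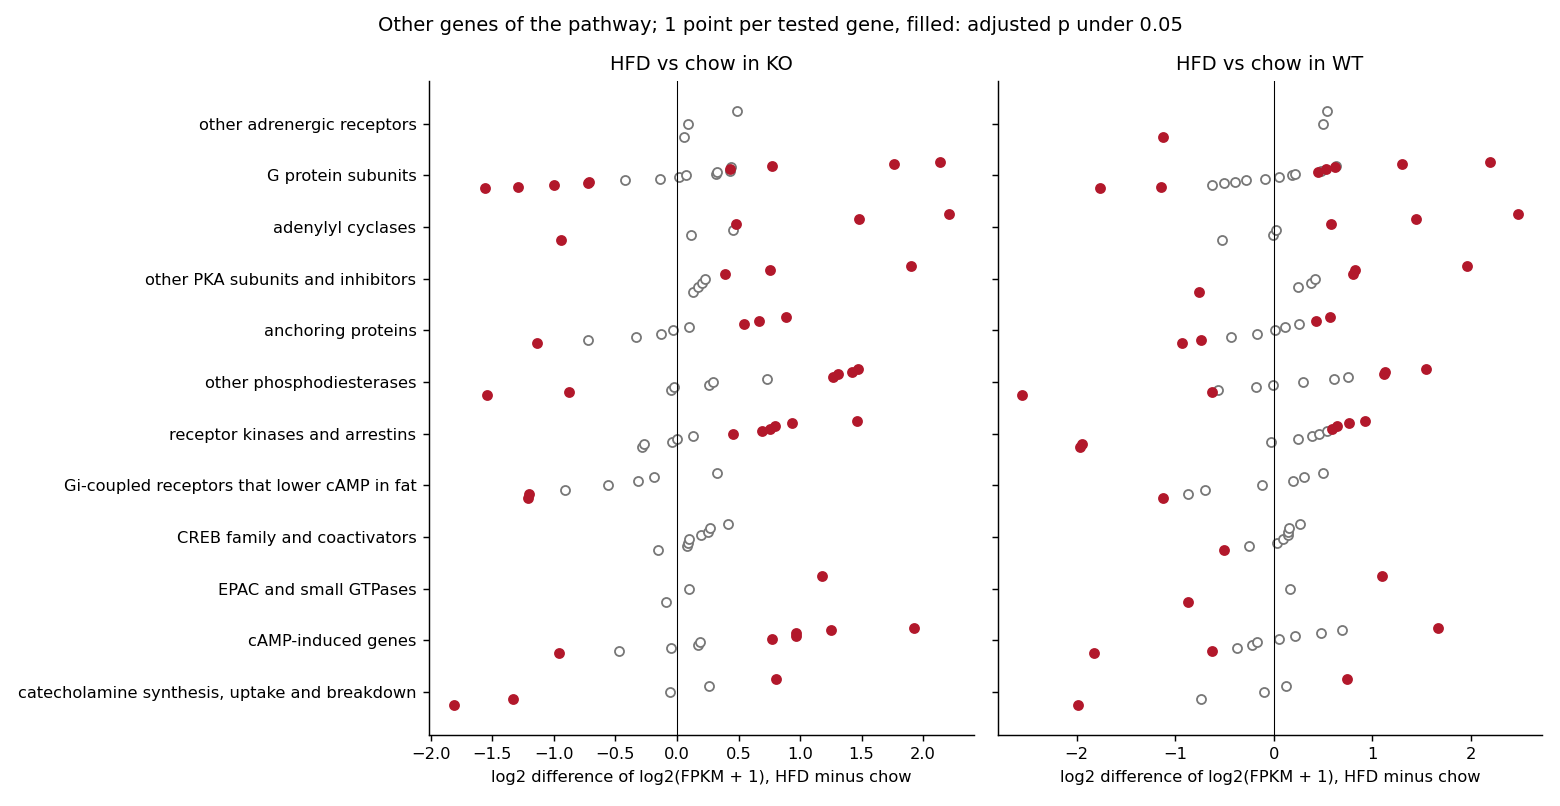
Differences of log2(FPKM + 1) between HFD and chow (horizontal axes) in KO (left) and WT (right) for the 96 other pathway genes that passed the filter, in rows by role; filled points have an adjusted p under 0.05. Most roles hold genes on both sides of 0, and Adcy7 and Gnal lie farthest to the right in both genotypes. Gnal passed the filter only through its HFD libraries.

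Among the adenylyl cyclases, which make cAMP, 3 of 6 rose in each genotype. Adcy7, a cyclase abundant in blood cells, averaged 33.9 ± 7.0 FPKM in HFD KO against 6.7 ± 2.3 in chow KO, and 37.5 ± 18.5 in HFD WT against 5.2 ± 0.5 in chow WT (SD, n = 4 each; log2 differences 2.21 and 2.48, limma adjusted p = 0.000231 and 7.33e-05). Adcy3 rose by 1.48 in KO and by 1.44 in WT (adjusted p = 0.000561 and 0.000439). Adcy6 was lower in KO (-0.94, adjusted p = 0.0115), and the WT value was -0.52 (adjusted p = 0.122). Of 17 other G protein subunit genes 4 rose and 5 fell in KO, and 5 rose and 2 fell in WT. Gnal, the olfactory-type stimulatory alpha subunit, rose by 2.13 in KO and 2.20 in WT, but no chow library was above 0.98 FPKM. It thus passed the filter only through its HFD libraries, and its rise was in part selected for. Gng2 rose by 1.77 and 1.30, while Gng7 fell by 0.995 in KO and by 1.15 in WT. The macrophage markers rose in the same comparisons, 15 of 16 in KO and 14 of 16 in WT; their part in these differences was not tested.

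Of 7 other protein kinase A subunit and inhibitor genes, 3 rose in KO, and 3 rose and 1 fell in WT. Pkib, a kinase inhibitor gene, stood at 8.2, 5.54, 7.79 and 6.11 FPKM in HFD KO against 1.59, 1.01, 0.81 and 1.07 FPKM in chow KO, and at 2.03, 7.21, 5.86 and 5.4 FPKM in HFD WT against 0.45, 0.61, 0.59 and 0.29 FPKM in chow WT. It rose by 1.90 in KO (adjusted p = 0.000115) and by 1.96 in WT (adjusted p = 5.88e-05). Too few chow libraries reached 1 FPKM for Pkib to pass the filter on chow alone. Prkar2a, the other type II regulatory subunit, rose in WT by 0.80 (adjusted p = 0.000153), with 0.39 in KO (adjusted p = 0.0161, and 0.0503 without chow KO replicate 4). Of 9 anchoring protein genes 3 rose and 1 fell in KO, and 2 rose and 2 fell in WT, with Akap7 lower in both (-1.14 and -0.93, adjusted p = 0.00383 and 0.0107).

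Of 11 other phosphodiesterase genes 4 rose and 2 fell in KO, and 3 rose and 2 fell in WT. Pde8a, of a cAMP-specific high-affinity type, averaged 21.4 ± 3.2 FPKM in HFD KO against 8.3 ± 1.0 in chow KO, and 18.8 ± 1.1 in HFD WT against 8.2 ± 1.2 in chow WT, rising by 1.27 and 1.12 (adjusted p = 1.82e-05 and 2.60e-05). Pde2a, which degrades cAMP when cyclic GMP is bound, rose by 1.42 and 1.54, and Pde7b by 1.31 and 1.13. Pde1a, a calcium-dependent phosphodiesterase, fell by 1.54 in KO and by 2.55 in WT (adjusted p = 0.000911 and 1.97e-05). Of 11 receptor kinase and arrestin genes 6 rose in KO, and 4 rose and 2 fell in WT. Grk5, a receptor kinase, rose by 0.80 and 0.93 (adjusted p = 0.000608 and 0.000154), Arrb2, beta-arrestin 2, rose by 1.46 in KO and by 0.76 in WT (adjusted p = 0.00177 and 0.0481), and Arrdc2, an alpha-arrestin gene, fell in WT by 1.94 (adjusted p = 0.000961), with -0.28 in KO (adjusted p = 0.568).

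Txnip, an alpha-arrestin relative of Arrdc3, stood at 303.45, 494.55, 381.83 and 508.64 FPKM in HFD KO and at 407.37, 322.54, 314.33 and 394.37 FPKM in HFD WT, and at 312.72, 300.64, 695.2 and 934.25 FPKM in chow KO against 1353.4, 1435.23, 1308.84 and 1501.4 FPKM in chow WT. As with Arrdc3, the 4 chow WT libraries were above the 12 others. Txnip fell on HFD in WT by 1.97 (adjusted p = 0.000271) and was lower in KO on chow (-1.49, adjusted p = 0.0272), with an interaction of 1.70 (SE 0.44, adjusted p = 0.156). That chow call was lost without chow KO replicate 1 (adjusted p = 0.0802), chow KO replicate 2 (0.0677) or any chow WT library (replicate 1 0.0670, replicate 2 0.0982, replicate 3 0.0750, replicate 4 0.0859). Akap2, an anchoring protein gene, stood at 21.82, 20.94, 18.7 and 17.57 FPKM in chow KO against 37.11, 43.2, 36.45 and 46.22 FPKM in chow WT, with a log2 difference of -1.01 (SE 0.16, adjusted p = 0.00566).

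Genes listed as cAMP-induced changed in both directions. Of 10, 5 rose and 1 fell in KO, and 1 rose and 2 fell in WT. Fos, an immediate early gene, rose on HFD by 1.93 in KO and by 1.66 in WT (adjusted p = 0.00300 and 0.00612). Dusp1, a phosphatase gene, rose in KO by 0.96 (adjusted p = 0.00238), with 0.48 in WT (adjusted p = 0.0717). Per1, a clock gene, fell in WT by 1.83 (adjusted p = 0.000553), with -0.47 in KO (adjusted p = 0.256). Of the 8 CREB family and coactivator genes, Crtc2 was the 1 called, lower in WT (-0.51, adjusted p = 0.00470). Of 7 genes of Gi-coupled receptors that lower cAMP in fat, the lactate receptor gene Hcar1 and the succinate receptor gene Sucnr1 were lower in KO and Sucnr1 in WT, but each of these calls was lost when some libraries were left out, with adjusted p up to 0.0818 for Hcar1, and up to 0.109 in KO and 0.138 in WT for Sucnr1. Of 3 genes of EPAC and small GTPases, Rap1b rose by 1.18 in KO and by 1.10 in WT (adjusted p = 0.000798 and 0.000866). Rapgef3, the gene of EPAC1, was lower in WT (-0.87, adjusted p = 0.0311), with -0.09 in KO (adjusted p = 0.843), and its WT call was lost when any of HFD WT replicates 2 and 3 or the chow WT libraries was left out, with adjusted p up to 0.109. Among the 5 genes of catecholamine synthesis, uptake and breakdown that passed, 1 rose and 2 fell in KO, and 1 rose and 1 fell in WT. The oxidase gene Maoa rose (0.81 in KO, 0.74 in WT, adjusted p = 0.00168 and 0.00222) and Maob fell (-1.81 and -1.99, adjusted p = 0.00317 and 0.00148). Slc22a3, a monoamine transporter gene, fell in KO (-1.33, adjusted p = 0.00545), with -0.74 in WT (adjusted p = 0.0781).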

How the data were processed

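RNA-seq was done on epididymal white fat of 16 mice, 4 in each of 4 groups taken from the sample titles. The authors deposited FPKM values per gene, with 2 decimals; reads were aligned with STAR 2.7 to GRCm38.p6 (mm10), per the submitters' processing notes, and the sources used here do not give the tool, annotation or strand setting behind the FPKM. Of the table, 20101 gene rows were used, 14408 circular RNA rows and 1 blank row were not, 26 symbols turned into dates were restored, and 19945 gene IDs matched the reference table. Gene read depth is unknown from FPKM, so no counting interval is given; relative depth, read from the steps of the circular RNA rows, ran from 0.751 to 1.42 of the mean. From the FPKM, limma 3.58.1 in R 4.3.3 was fitted to log2(FPKM + 1) of 12667 genes, with 4 group means, a variance trend and Benjamini-Hochberg adjustment; 7434 genes under the filter were left out. Fold changes on that scale understate those of low genes. limma and the permutation tests were first tested on simulated data. Balances and correlations used exact permutation tests, two-sided, computed with NumPy 2.4.6, with ranks from SciPy 1.17.1. The 4 mice of a group are separate samples in the labels. The 9 genes in all comparisons, up to 3 genes with the smallest p per pathway list and comparison among those called, and the 3 genes most alike to each member are named, except genes that are not reported here. Members, lists and tests were chosen with earlier results of these data known. Other scalings, filters, pseudocounts, weights, a replicate block and left-out libraries were tried.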

Additional observations from a re-analysis of the deposited data

Results flagged for a closer look

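The response of Arrdc3 to the diet differed between the genotypes, with an interaction of 2.55 on the log2 scale (SE 0.32, limma adjusted p = 0.00276). The diet difference was -0.19 in KO and -2.73 in WT. All 4 chow WT libraries lay above the 12 others, and the estimate ran from 2.12 to 2.74 over the 30 alternatives. Its cause was not tested. No library of any member stood apart within its group of 4 by Dixon's criterion, in 36 groups tested, where chance marks about 1 in 20.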

How the results depend on the processing

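The number of members called between HFD and chow in KO was 2 as reported, where 38.9% of all tested genes were called. It was 6 with array weights, where 59.2% of all tested genes were called. Without chow KO replicate 2 and HFD KO replicate 4 it was 4 (49.4% of all). It was 6 when HFD KO replicate 2 was left out as well (50.1% of all). With the adipocyte marker score as a covariate it was 1 (8.68% of all). The last 3 settings were chosen after seeing the data. In WT the number of members called was 3 as reported (41.9% of all tested genes). It was 5 with median-of-ratios scaling (44.4% of all) and 6 with array weights (60.0% of all). At an adjusted p under 0.1 it was 5, where 3709 of the 12667 tested genes were called higher and 2677 lower. Leaving out each replicate gave 2 to 3 calls in KO, 3 to 4 in WT, 0 between genotypes on HFD, 1 on chow and 1 in the interaction. Between diets, 29.3% to 44.3% of all tested genes were then called in KO and 32.9% to 45.9% in WT. Replicate numbers did not pair the libraries (5 of 16 pairs had a correlation over 0.1, from -0.630 to 0.367); with a replicate block the counts were 2, 3, 0, 1 and 1, and the Arrdc3 interaction had adjusted p = 0.00879.

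Values that were not past the threshold changed sign as follows, and the cause was not tested. For Gnas between diets in KO the log2 difference was -0.054 with median-of-ratios scaling, -0.014 with quantile normalization, -0.060 with array weights, -0.016 without the 2 libraries and -0.13 without the 3, and from -0.024 to 0.15 when leaving out replicates. With the covariate, KO diet values were 0.39 for Adrb1, 0.27 for Arrdc3, 0.79 for Prkar2b and 0.27 for Prkaca, and WT values were -0.071 for Pde4b and 0.31 for Prkar2b. Between KO and WT on HFD, Gnas was -0.060 with median-of-ratios scaling, -0.028 with array weights, -0.017 without the 2 libraries and -0.13 without the 3. There Pde3b was 0.12 and Prkar2b 0.036 with array weights, 0.29 and 0.063 with the covariate, and Adrb1 was -0.16 without the 3 libraries. On chow, Pde4b was -0.064, -0.11 and -0.12 with median-of-ratios, quantile and array weights, -0.20 without the 2 or 3 libraries and -0.0020 with the covariate. Adrb1 was -0.034 and Pde3b 0.017 with quantile normalization, and Pde3b was 0.087 without the libraries. In the interaction, Pde3b was -0.0074 with constant-sum scaling, -0.053 with quantile normalization, -0.37 without the 2 libraries and -0.57 without the 3. Prkar2b was -0.13 and -0.27 without these, and Adrb1 -0.24 without the 3. With quantile normalization the balance of Pde4b over Pde3b on chow was -0.13, and the correlation of Adra2a with the macrophage score was 0.28. Leaving out replicates gave, for Arrdc3 on diet in KO, -0.38 to 0.0061. On HFD it gave -0.37 to 0.28 for Pde3b, -0.62 to 0.082 for Prkar2b and -0.017 to 0.16 for Gnas. On chow it gave -0.053 to 0.22 for Adrb1, -0.013 to 0.45 for Adrb3, -0.21 to 0.087 for Pde3b and -0.20 to 0.099 for Pde4b. In the interaction it gave -0.29 to 0.37 for Pde3b and -0.14 to 0.55 for Prkar2b.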
